A study of Mus musculus with 15 samples.

Results

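A set of 7 genes of thyroid hormone signalling were followed by RNA-seq through the development of mouse cerebellar granule neuron precursors and in medulloblastoma cells. They were taken as a fixed list of names: the receptor genes Thra and Thrb, the response genes Klf9 and Hr, the deiodinase genes Dio2 and Dio3, and the corepressor gene Ncor1. These are 7 of the 21889 genes in the deposited gene counts, and all 7 passed the filter on low counts that left 15259 genes for testing. The study set out to find genes that increase as granule neuron precursors differentiate, and to set these cells beside the tumour that can arise from them. It held 15 libraries of poly(A) RNA, 3 in each of 5 groups, and every sample was enriched by Percoll fractionation of cerebellum.

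The precursors were taken on an embryonic day (E15.5) and at postnatal days 1, 7 and 14 (P1, P7 and P14). The E15.5 libraries carry the genotype label Math1-GFP, a reporter of the granule lineage gene Atoh1, and the P1, P7 and P14 libraries are labelled WT. Age and this genotype label cannot be told apart in any comparison with E15.5. The medulloblastoma group (MB) is labelled Ptch1 heterozygous, the loss of 1 copy of the gene for the Sonic hedgehog receptor, and has no age label, so it has no control of known matching age. The labels do not say whether replicates came from separate animals, litters or tumours, or whether tissue was pooled, so p-values measure only the spread between these samples, which may be technical.

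Thyroid hormone reaches the brain mostly as thyroxine, a precursor with weak receptor activity. The type 2 deiodinase made from Dio2 turns thyroxine into the active hormone triiodothyronine, and in brain it is known mainly from astrocytes and tanycytes. The type 3 deiodinase made from Dio3 inactivates both hormones and is known for high activity in fetal tissue. The nuclear receptors made from Thra and Thrb sit on DNA with retinoid X receptors. Without hormone they hold corepressor complexes built on NCoR1 and histone deacetylase 3, and with hormone they exchange them for coactivators. Klf9, a zinc finger transcription factor, and Hr, the hairless corepressor, are classic genes induced by the hormone in developing brain. In the cerebellum, lack of thyroid hormone is known to delay the end of granule precursor division and their inward migration.

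The positions below are those of the deposited transcript counts, in mouse build mm9, and span each gene from first to last exon. Thra (ENSMUSG00000058756) lies at chr11:98603125-98630320 on the plus strand, and Thrb (ENSMUSG00000021779) at chr14:18493474-18870602 on the plus strand. Klf9 (ENSMUSG00000033863) lies at chr19:23215716-23241401 and Hr (ENSMUSG00000022096) at chr14:70953863-70973355, both on the plus strand. Dio2 (ENSMUSG00000007682) lies at chr12:91962994-91976878 on the minus strand, and Dio3 (ENSMUSG00000075707), a gene of a single exon, at chr12:111517278-111519307 on the plus strand. Ncor1 (ENSMUSG00000018501) lies at chr11:62129928-62272043 on the minus strand.

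Promoter windows were read for the members with a RefSeq entry, to show whether the short sequences that thyroid receptors and cAMP-responsive factors are known to bind occur there. RefSeq entries in build GRCm38.p6 were found for 5 of the 7 members (Thrb, Klf9, Dio2, Dio3 and Ncor1), with 7 windows between them. The 250 bases before the annotated start site were searched on both strands for the receptor half-site AGGTCA, for its direct repeat with a spacer of 4 bases (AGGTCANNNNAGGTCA, which holds the half-site within it) and for the cAMP response element TGACGTCA. Shown are the windows of the deiodinase genes, of Klf9 and of the receptor gene with a match, with matches in capitals.
Dio2, chr12:90739039-90739288, minus strand: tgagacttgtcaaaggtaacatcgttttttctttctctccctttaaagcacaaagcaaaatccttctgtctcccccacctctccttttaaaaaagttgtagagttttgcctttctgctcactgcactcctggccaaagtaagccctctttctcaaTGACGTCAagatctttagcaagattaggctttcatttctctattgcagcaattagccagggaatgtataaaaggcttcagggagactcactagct
Thrb, chr14:17660710-17660959, plus strand: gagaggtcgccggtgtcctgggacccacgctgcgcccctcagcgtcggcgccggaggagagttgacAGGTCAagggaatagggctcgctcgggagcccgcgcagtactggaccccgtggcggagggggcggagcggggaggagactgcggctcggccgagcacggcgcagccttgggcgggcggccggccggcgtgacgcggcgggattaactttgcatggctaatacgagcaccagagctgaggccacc
Klf9, chr19:23140976-23141225, plus strand: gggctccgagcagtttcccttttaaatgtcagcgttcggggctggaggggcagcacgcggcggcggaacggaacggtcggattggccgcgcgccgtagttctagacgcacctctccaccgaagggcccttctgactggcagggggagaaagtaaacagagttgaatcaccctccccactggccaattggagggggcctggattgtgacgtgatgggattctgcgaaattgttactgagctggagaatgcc
Dio3, chr12:110278980-110279229, plus strand: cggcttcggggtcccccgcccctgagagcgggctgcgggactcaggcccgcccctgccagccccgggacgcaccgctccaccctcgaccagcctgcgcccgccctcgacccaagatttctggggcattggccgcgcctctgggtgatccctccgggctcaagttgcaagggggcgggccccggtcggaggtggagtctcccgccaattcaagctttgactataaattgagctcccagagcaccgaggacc
The Dio2 window held TGACGTCA from -95 to -88, counted from the start site, as did 1.55% of 32851 mouse promoter windows of the same length. The window shown is the first of 2 Thrb windows and held AGGTCA from -184 to -179, which 14.02% of windows did. The direct repeat was found in 5 of the 32851 windows (0.0152%), and these are not windows of the members. A match is a run of letters and not a measured binding site, and the windows without one say nothing about more distant sites.

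Total counts in genes ranged from 12597472 to 43443132 per library. The granule lineage label was checked on 8 markers, of which 7 had counts in every group. The last, Gabra6, a receptor subunit of mature granule neurons, had 0 counts in the 3 E15.5 libraries and 161 to 202 CPM at P14, where CPM are counts scaled to a library of 1000000 by TMM factors. Atoh1, the gene that defines the precursors, stood at 124 to 138 CPM at E15.5, 10.9 to 13.1 CPM at P14 and 236 to 322 CPM in MB. Markers of other cerebellar cells were present too, and their sums are given with the members below. P1 replicate 3 stood apart within its group, with oligodendrocyte markers summing to 3183 CPM against 234 and 589 CPM in replicates 1 and 2. The gene tables of 6 libraries (E15.5 replicates 1 and 3, all of P7 and MB replicate 1) also lacked nearly all reads of the gene Tsnax that their transcript tables held, at most 0.273% of them, against at least 92.4% in the other 9. The groups P1, P7 and P14 each lie wholly on 1 side of this split, so that split and age cannot be told apart between P7 and P1 or P14. For the members the 2 sets gave like shares: the median share of transcript counts found in the gene table was 82.8% and 83.5% for Thra, and between 97.0% and 100% for the other 6.

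Thra, which encodes the receptor that predominates in brain, was the more abundant receptor RNA per kilobase in every library. It read 691, 685 and 997 CPM in E15.5 replicates 1 to 3, and 221, 183 and 279 CPM at P1. It read 396, 457 and 429 CPM at P7, 377, 420 and 419 CPM at P14, and 162, 117 and 142 CPM in MB. All E15.5 libraries lay above all others and all MB libraries below all others, while P7 and P14 overlapped. Thra fell by 1.80 on the log2 scale from E15.5 to P1 (SE 0.21, adjusted p = 9.14e-06, edgeR's quasi-likelihood test, as for every adjusted p below). It rose by 0.91 from P1 to P7 (SE 0.20, adjusted p = 0.0291) and was higher by 0.83 at P14 than at P1 (SE 0.20, adjusted p = 0.0235). These postnatal rises did not keep their call when P1 replicate 1 or 2, or any P7 or P14 library of the contrast, was left out. Over all alternatives the rise ran from 0.77 to 1.09 for P7 and from 0.70 to 1.01 for P14. The P7 rise was also lost in a fit of P1 and P7 alone, and the P14 rise with the counts of start site models. For Thra these models hold only a transcript of 4 exons, a part of the gene. In the order of group means, E15.5 (791 ± 178 CPM, SD, n = 3), P7 (427 ± 30.7), P14 (405 ± 24.6), P1 (227 ± 48.6) and MB (140 ± 22.6), P7 and P14 were the only neighbours whose difference was not called (adjusted p = 0.835).

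The 3′ end of Thra shares 1075 bases with Nr1d1, a gene of the circadian clock transcribed on the opposite strand (chr11:98629246-98636647 in mm9). The strand setting of the counting is not given in the sources used here, so reads of the shared stretch cannot be assigned to a gene. Of the reads over the Nr1d1 transcript, the gene counts kept 3.35% to 46.0%, and the reads they dropped equalled 10.9% to 19.6% of the Thra count. Of the reads over the 10-exon Thra transcript they kept 79.8% to 85.3%, so reads were left out for both genes. The start site model of Thra ends before Nr1d1, and these models counted 3246 Nr1d1 reads in E15.5 replicate 1, against 212 in the gene counts. Among the 3 Thra transcripts counted, the form of 4 exons held on average 20.5% (P14) to 26.0% (P7) of the count of the 10-exon form, and the 9-exon form held 70.7% (P14) to 76.8% (MB). These transcripts share exons and a read counts for each, so the shares describe overlapping forms. They were not matched to the hormone-binding and non-binding receptor isoforms.

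Thrb, the second receptor gene, was low in all libraries and lowest in the tumour. It read 13.4, 20.0 and 9.85 CPM at E15.5, 18.8, 17.3 and 18.2 CPM at P1, and 10.6, 6.59 and 9.90 CPM at P7. It read 16.1, 16.8 and 13.7 CPM at P14, and 2.54, 2.05 and 2.76 CPM in MB. The MB libraries lay below every precursor library, and the P7 libraries lay below those of P1 and P14. The test over the 4 ages called Thrb (adjusted p = 0.0257), but not without P1 replicate 1 or P7 replicate 2, where the adjusted p reached 0.112. No single step between ages was called: the difference was 0.34 at P1 against E15.5 (SE 0.26, adjusted p = 0.308), -1.002 at P7 against P1 (SE 0.26, adjusted p = 0.051) and 0.78 at P14 against P7 (adjusted p = 0.0679). DESeq2 called the last 2 steps (adjusted p = 0.00608 for P7 against P1). In the order P1 (18.1 ± 0.761 CPM), P14 (15.54 ± 1.62), E15.5 (14.4 ± 5.18), P7 (9.04 ± 2.15) and MB (2.45 ± 0.363), P7 and MB were the only neighbours that differed by a call.

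Per kilobase of exon, Thra stood at 317 ± 71.5 CPM at E15.5 and Thrb at 2.41 ± 0.863. The ratio of Thra to Thrb on this scale was 138 ± 15.2 in MB, 63.2 ± 9.09 at P14, 120 ± 41.0 at P7, 30.1 ± 5.94 at P1 and 150 ± 83.6 at E15.5. The P1 libraries, at 25.4 to 36.8, lay below all others in this ratio, and it was not tested. The MB ratios, at 123.2 to 153.5, lay within the range of the E15.5 libraries, 82.1 to 243.

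**Figure D1:**
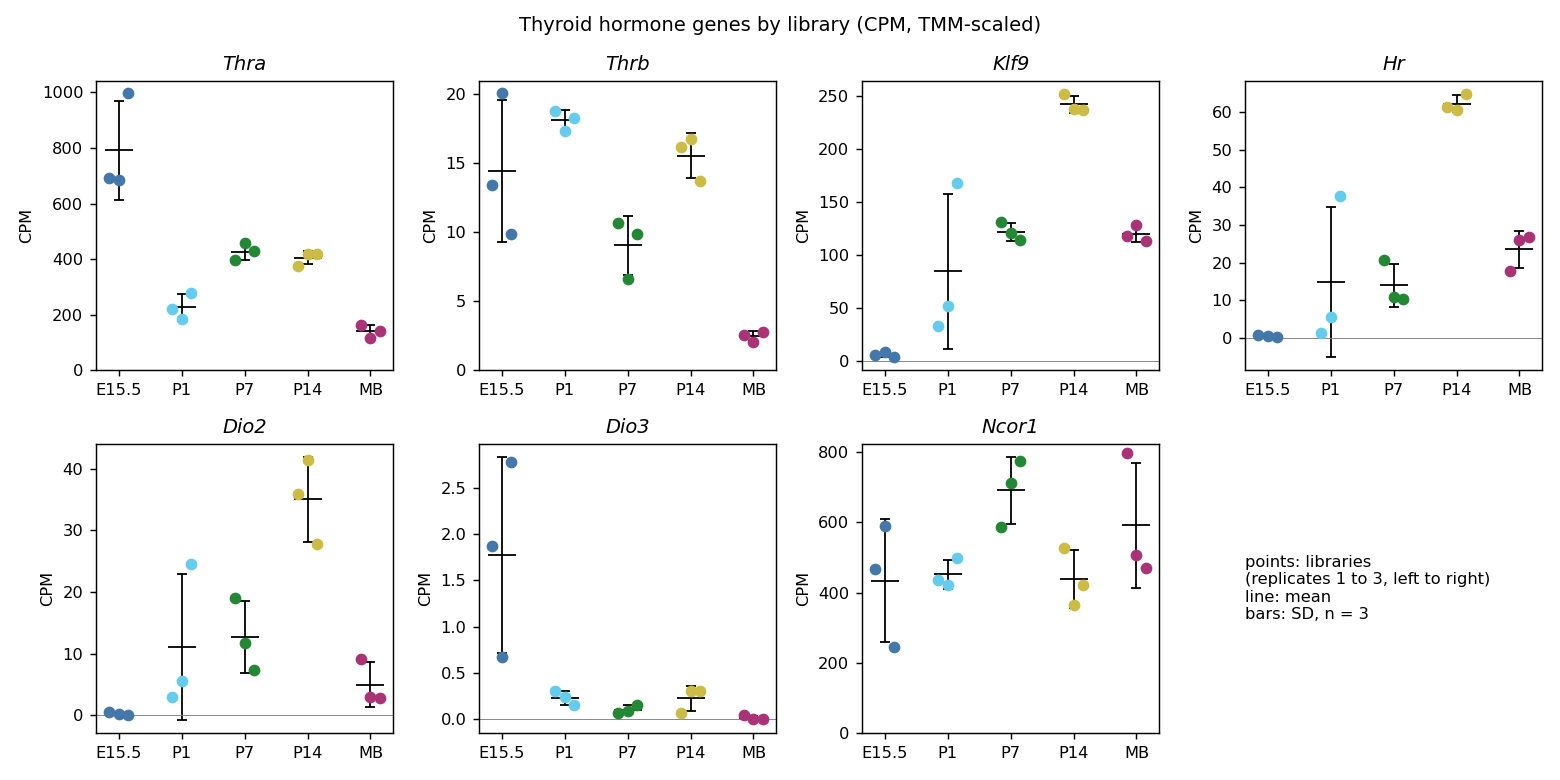
Level of each gene in CPM (vertical axes, linear) in the 5 groups; points are libraries, horizontal lines are group means and bars are SD, n = 3. Thra is highest at E15.5, Klf9, Hr and Dio2 are highest at P14, and Thra and Thrb are lowest in MB; the axes differ between panels.

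Klf9, the transcription factor gene used as a readout of the hormone in brain, went from low at E15.5, with 356 counts over the group, to abundant. It read 5.15, 8.35 and 3.62 CPM at E15.5, then 33.0, 51.9 and 168 CPM at P1. It read 131, 120 and 114 CPM at P7, 252, 238 and 237 CPM at P14, and 118, 128 and 113 CPM in MB. The E15.5 libraries lay below all others, the P14 libraries above all others, and MB overlapped P7, while the P1 libraries spread widely with replicate 3 above every P7 library. Klf9 rose by 3.92 on the log2 scale from E15.5 to P1 (SE 0.49, adjusted p = 1.86e-05), and by 2.93 without P1 replicate 3 (adjusted p = 4e-06). It was higher by 1.52 at P14 than at P1 (SE 0.43, adjusted p = 0.0412), a call lost in the fit of those 2 groups alone and on leaving out P1 replicate 1 or 2 or any P14 library. Without P1 replicate 3 the same difference was 2.51, and P7 was also called above P1, by 1.52. In the order P14 (242 ± 8.42 CPM), P7 (122 ± 8.50), MB (120 ± 7.61), P1 (84.3 ± 73.1) and E15.5 (5.71 ± 2.41), P1 and E15.5 were the neighbours that differed by a call.

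Hr, whose product binds thyroid hormone receptors and histone deacetylases, followed Klf9 at a lower level. It read 0.785, 0.501 and 0.341 CPM at E15.5, which is 37 counts over the group, and 1.29, 5.50 and 37.8 CPM at P1. It read 20.5, 10.95 and 10.2 CPM at P7, 61.3, 60.5 and 64.7 CPM at P14, and 17.7, 25.9 and 26.8 CPM in MB. The P14 libraries lay above all others and E15.5 below all others, and P1 ran from near E15.5 in replicate 1 to above MB in replicate 3. Hr rose by 4.80 on the log2 scale from E15.5 to P1 (SE 0.93, adjusted p = 0.000722). Without P1 replicate 3 the rise was 2.68 and still called (adjusted p = 0.0016). Against E15.5 replicate 2 alone, the E15.5 library on the same side of the Tsnax split as P1, the difference was 4.88 and was not called (adjusted p = 0.0533). P14 exceeded P1 by 2.06 without a call (adjusted p = 0.0891), but by 4.19 without P1 replicate 3 (adjusted p = 0.000252), when P7 was also called above P1 by 2.03. In the order P14 (62.2 ± 2.24 CPM), MB (23.5 ± 4.99), P1 (14.8 ± 19.9), P7 (13.9 ± 5.75) and E15.5 (0.543 ± 0.225), P7 and E15.5 were the neighbours that differed by a call.

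Dio2, the activating deiodinase gene with the cAMP response element letters shown above, was near 0 at E15.5. It read 0.480, 0.251 and 0.0525 CPM there, from 16 counts over the group, and 3.00, 5.58 and 24.6 CPM at P1. It read 19.0, 11.8 and 7.36 CPM at P7, 35.8, 41.4 and 27.7 CPM at P14, and 9.12, 2.98 and 2.76 CPM in MB. E15.5 lay below all other libraries and P14 above all others, and MB lay below P14 but overlapped P1 and P7. Dio2 rose by 5.52 on the log2 scale from E15.5 to P1 (SE 0.92, adjusted p = 0.000229), and by 4.16 without P1 replicate 3 (adjusted p = 0.000571). The difference of 1.66 between P14 and P1 was not called (adjusted p = 0.127), whereas without P1 replicate 3 it was 3.02 and called (adjusted p = 0.0054). In the order P14 (35.0 ± 6.89 CPM), P7 (12.7 ± 5.88), P1 (11.1 ± 11.8), MB (4.96 ± 3.61) and E15.5 (0.261 ± 0.214), MB and E15.5 were the neighbours that differed by a call.

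Dio3, the inactivating deiodinase gene, ran the other way, at counts near the limit of these libraries. Its raw counts were 1, 0 and 0 in MB, 2, 10 and 9 at P14, 2, 3 and 4 at P7, 7, 6 and 4 at P1, and 43, 8 and 106 at E15.5. Scaled to library size, E15.5 held 1.88, 0.668 and 2.78 CPM, all above the other groups, in which the highest library reached 0.301 CPM. The pooled E15.5 level was 9.57 times that of P1 (95% interval 5.79 to 16.8, exact for counting error only), and the fall was called (log2 -2.99, SE 0.62, adjusted p = 0.0012). Dio3 passed the filter on low counts through its E15.5 libraries only, so its calls against E15.5 are not independent of that filter. The fall was also called in the fit without the filter. Against E15.5 replicate 2 alone, the lowest of the 3, it was -1.54 and was not called (adjusted p = 0.168). Neither P1 and P14 nor P14 and P7, the next neighbours in the order of means, differed by a call, and these levels rest on 9 to 21 counts per group. Dio2 and Dio3 levels thus crossed between E15.5 and P1: per kilobase, Dio3 stood at 0.875 ± 0.523 CPM and Dio2 at 0.0449 ± 0.0368 at E15.5, against 0.112 ± 0.0369 and 1.90 ± 2.03 at P1.

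Ncor1, the corepressor scaffold gene, was abundant everywhere and was not called in any contrast of the fit to all libraries. It read 466, 591 and 246 CPM at E15.5, 436, 422 and 500 CPM at P1, and 587, 712 and 775 CPM at P7. It read 528, 365 and 421 CPM at P14, and 797, 508 and 469 CPM in MB. The P7 libraries lay above those of P1 and P14, and MB and E15.5 were spread across most of the range. The test over the 4 ages gave an adjusted p of 0.110, and it became a call without E15.5 replicate 2 or 3 (lowest adjusted p 0.0424). The group means ran from 691 ± 95.9 CPM at P7 through MB (591 ± 179), P1 (453 ± 41.5) and P14 (438 ± 82.5) to 434 ± 175 at E15.5, and each pair of neighbours overlapped. Ttc19 and another transcript on the opposite strand overlap the ends of Ncor1, and their reads cannot be told apart there without strand.

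From E15.5 to P1, Klf9, Hr and Dio2 rose and Thra and Dio3 fell, so that 5 of the 7 genes were called. Dio3 passed the filter on low counts through its E15.5 libraries only, so its call here is not independent of that filter. Among successive ages this step also held the most calls over all genes: 25.4% of all tested genes were called higher and 20.9% lower. The median change of the 7 was 0.34 on the log2 scale, beside 0.03 for all tested genes. From P1 to P7, Thra alone was called, higher, where 1.4% of genes were called higher and 1.74% lower. From P7 to P14, 0 of the 7 were called by edgeR's quasi-likelihood test, where 5.81% of genes were called higher and 4.51% lower. At an unadjusted p under 0.05 the test counted 5 of the 7, DESeq2 called 1 (Thrb), and a fit of P7 and P14 alone called Thrb, Klf9, Hr, Dio2 and Ncor1. The shares of all tested genes at that threshold and in those fits are not given here, so these counts stand without a background. From P1 to P14 Thra and Klf9 were called higher, with 3.63% of genes called higher and 5.31% lower. Without P1 replicate 3 this count was 4, with Hr and Dio2 added, and the share of all genes in that fit is not given here.

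P7 differed from E15.5 by higher Klf9, Hr and Dio2 and lower Thra and Dio3 (background 21.6% higher and 16.2% lower). So did P14, with Klf9 higher by 5.44 on the log2 scale (adjusted p = 1.1e-06), Hr by 6.87 and Dio2 by 7.18, Thra lower (-0.97) and Dio3 pooled over P14 at 0.105 of its E15.5 level (background 26.7% higher and 24.2% lower). Among the 4 ages every member except Ncor1 was called, where 55.7% of all tested genes were. These contrasts share their E15.5 libraries and are not independent of each other. The Dio3 calls in them are also not independent of the low-count filter, as given above.

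**Figure D2:**
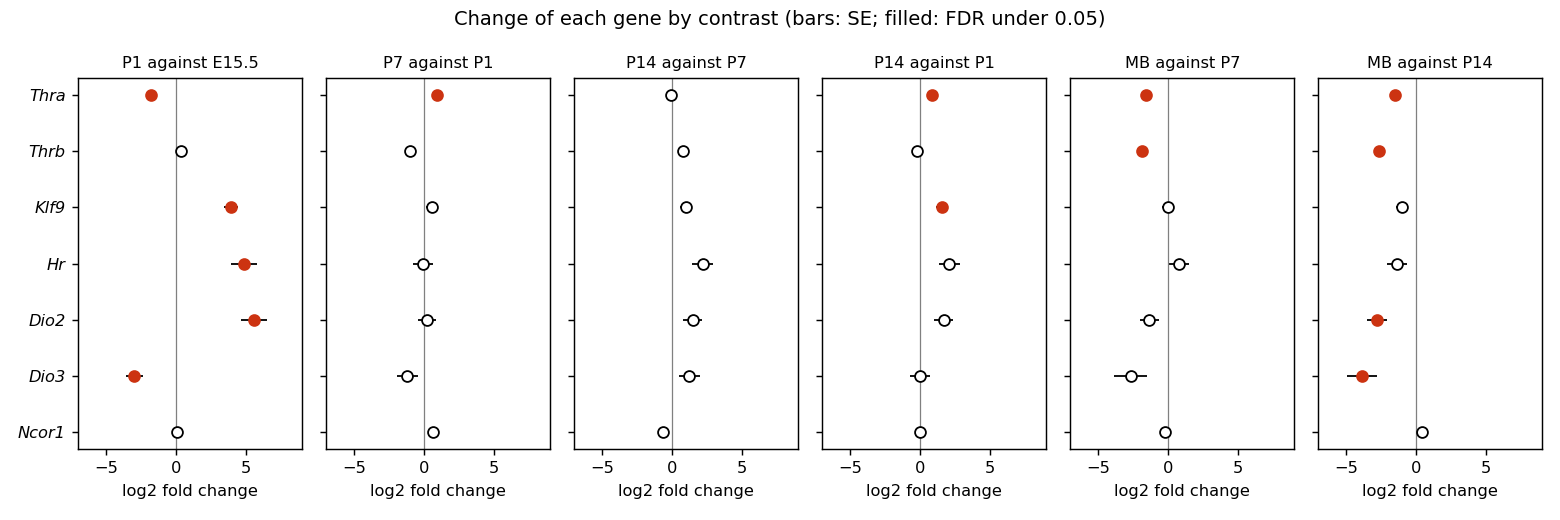
Log2 fold change of each gene (horizontal axes, first-named group minus second, the same scale in all panels) with SE as bars, in 6 contrasts; filled points had an adjusted p under 0.05. From E15.5 to P1 the points of Klf9, Hr and Dio2 lie far to the right and those of Thra and Dio3 to the left, and in MB the receptors lie to the left of P7 and P14.

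In medulloblastoma both receptor genes were low, while Klf9 and Hr were not called against P7. Thra was lower in MB than at P7, with a log2 difference of -1.61 (SE 0.21, adjusted p = 2.44e-05), and so was Thrb, at -1.89 (SE 0.28, adjusted p = 8.31e-05). These 2 were the members called, where 20.7% of genes were called lower and 13.7% higher, and both kept their call in all 14 alternatives run. The median of the 7 was -1.37, beside 0.02 for all tested genes. Klf9 differed from P7 by -0.02 (SE 0.42, adjusted p = 0.978) and Hr by 0.75 (adjusted p = 0.456), which does not show that these levels are equal. For Hr, 2 of the 3 MB libraries (25.9 and 26.8 CPM) lay above every P7 library. Dio2 was -1.37 from P7 without a call (adjusted p = 0.138), and -2.14 with one when MB replicate 1 was left out (adjusted p = 0.0338).

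Against P14, MB was lower in Thra (log2 -1.53, adjusted p = 2.3e-05), in Thrb (-2.67, adjusted p = 2.59e-06) and in Dio2 (-2.83, SE 0.71, adjusted p = 0.00383). Dio3 was called lower as well (adjusted p = 0.00623), with 21 counts at P14 and 1 in MB, a pooled ratio of 20.6 (95% interval 3.32 to 853). It was open to test here only through its E15.5 libraries, which carried it past the filter on low counts. Of all tested genes, 27.2% were called lower and 22.9% higher, with a median of 0.01 beside -1.53 for the 7. Klf9 was at -1.01 (adjusted p = 0.0594) and Hr at -1.40 (adjusted p = 0.12), and the libraries of the 2 groups did not overlap for either gene. DESeq2 called Klf9 here, and a fit of the 2 groups alone called Klf9 and Hr.

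Set beside the younger precursors, MB differed from P1 by lower Thra (-0.70, adjusted p = 0.0125), Thrb (-2.89) and Dio3 (background 22.6% lower and 16.1% higher). It differed from E15.5 by lower Thra (-2.50), Thrb (-2.55) and Dio3 and by higher Klf9 (4.43), Hr (5.46) and Dio2 (4.36), with a background of 26.0% higher and 24.2% lower. Dio3 had 1 count over the MB libraries and 17 at P1, and it passed the low-count filter through E15.5 only.

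Markers of other cells moved with several of these genes, and in bulk RNA fewer cells of a type and less RNA per cell cannot be told apart. The 8 astroglial markers summed to 1482 to 2073 CPM in MB, 3840 to 5113 at P14, 2069 to 4163 at P7, 2425 to 4169 at P1 and 349 to 371 at E15.5. Within P1, P7 and MB, the library with the highest astroglial sum also had the highest Dio2, which was not so within E15.5 or P14. Over the 15 libraries the correlation of log2 Dio2 with the log2 astroglial sum was 0.96, against 0.91 for Klf9 and 0.84 for Hr. The oligodendrocyte sum gave like values, 0.91 for Dio2, 0.86 for Klf9 and 0.86 for Hr. The granule lineage sum gave 0.71, 0.68 and 0.66 in the same order. These points share libraries and fall into groups, so the values are descriptions, and the part of astroglia in the Dio2 levels was not tested.

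The 8 oligodendrocyte markers summed to 90.5 to 323 CPM in MB, 5028 to 5440 at P14, 468 to 1008 at P7, 234 to 3183 at P1 and 26.9 to 42.1 at E15.5. P1 replicate 3, the library with the highest Klf9, Hr and Dio2 of its group, held the 3183 CPM. Endothelial and pericyte markers summed to 24.5 to 38.5 CPM in MB, 1077 to 1205 at P14, 364 to 560 at P7, 408 to 814 at P1 and 15.3 to 48.7 at E15.5. In MB the oligodendrocyte and endothelial sums lay below every P7 library, and the astroglial sum reached the lowest P7 library in 1 of 3 cases. Not all glial markers followed their sums. Olig1 and Olig2 averaged 121 and 95.6 CPM in MB against 68.3 and 41.4 at P7, with overlapping libraries. Slc1a2 stood at 572 to 806 CPM against 274 to 441, and Gfap averaged 249 against 246. The rest of these 2 glial lists had lower means in MB. Microglial markers summed to more in MB, 133 to 374 CPM against 39.4 to 119 at P7. Over the 15 libraries their log2 sum had a correlation of 0.83 with Klf9 and 0.82 with Hr. The part of these cells in the Klf9 and Hr levels of MB was not tested.

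Markers of other neurons moved with the receptor genes. Interneuron markers summed to 89.5 to 144 CPM in MB against 265 to 391 at P7, and their log2 sum had a correlation of 0.84 with Thra and 0.79 with Thrb. Purkinje cell markers summed to 31.1 to 47.2 CPM against 226 to 823, with correlations of 0.69 and 0.79. The division markers ran against Thra and Thrb (-0.70 and -0.65), and so did the microglial markers (-0.72 and -0.44). The part of any of these cells, or of division, in the low Thra and Thrb of MB was not tested.

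Gabra6 stood at 0.22 to 1.11 CPM in MB, 161 to 202 at P14, 2.54 to 10.3 at P7 and 1.12 to 102 at P1. The share of mature granule neurons and of glia in the P14 rise of Klf9 and Hr was not tested.

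**Figure D3:**
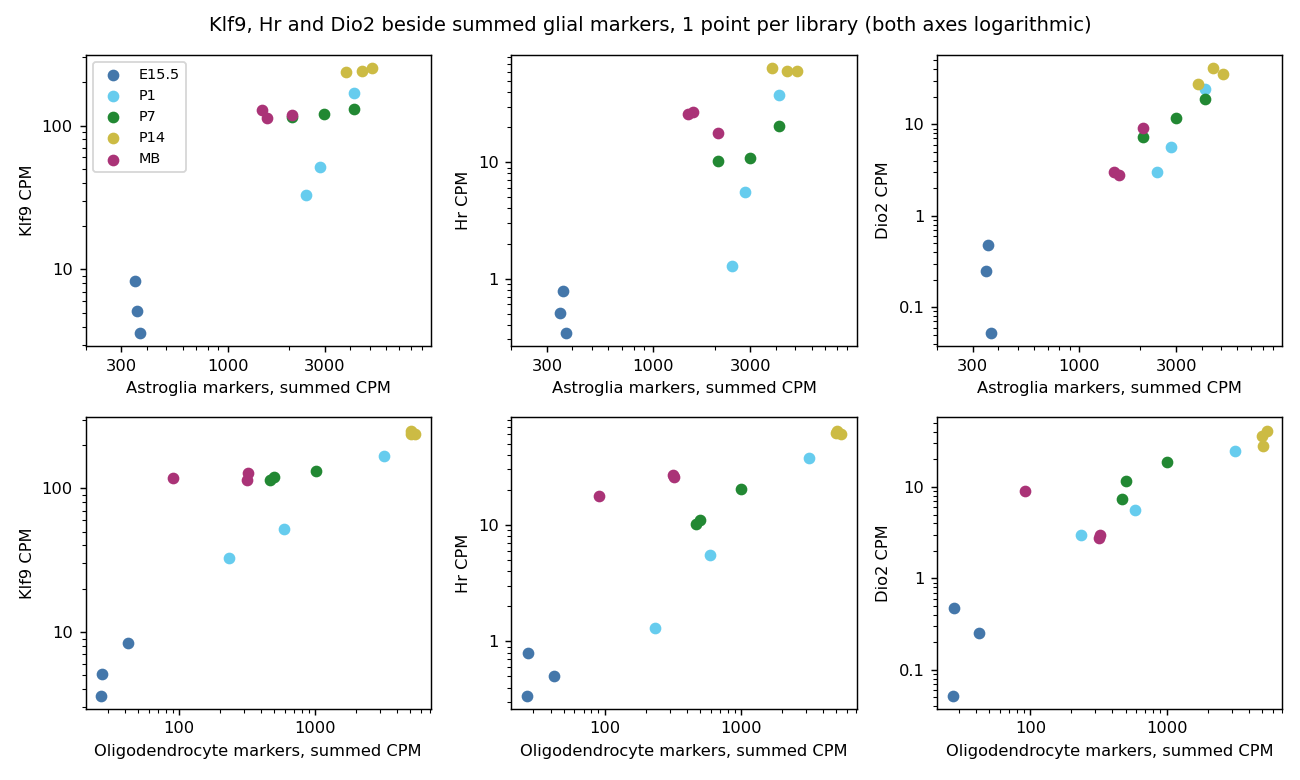
Klf9, Hr and Dio2 (vertical axes) against the summed astroglial markers (upper panels) and oligodendrocyte markers (lower panels) in CPM, both axes logarithmic, 1 point per library and 1 colour per group. P14 points lie at the upper right, E15.5 points at the lower left, and MB points overlap those of P7 in Klf9 with fewer oligodendrocyte counts than P7.

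A wider list of 33 pathway genes, chosen by role, was counted in the same fit, and 32 were tested (the type 1 deiodinase gene Dio1 did not pass the filter). From E15.5 to P1, 12 of 32 were called higher and 6 lower, beside 25.4% and 20.9% of all tested genes, with a median of 0.39 on the log2 scale beside 0.03 for all genes. Of the 8 genes for hormone transport and binding, 6 rose. Slco1c1, a carrier of thyroxine at the blood-brain barrier and in astrocytes, rose by 5.996 (SE 0.44, adjusted p = 2.5e-07), from 0.785, 1.25 and 2.86 CPM to 65.9, 106 and 160 CPM. Endothelial and pericyte markers summed to 15.3 to 48.7 CPM at E15.5 and 408 to 814 at P1. The part of endothelium and astroglia in the Slco1c1 rise was not tested. Slc7a5 and Slc7a8, amino acid carriers that also take thyroid hormone, rose by 1.62 and 2.57, and Crym, a cytosolic protein that binds triiodothyronine, rose by 2.48. Slc16a10 rose by 1.13. Ttr, the carrier of thyroxine secreted by choroid plexus, rose by 5.43 (SE 1.68) but ran from 285 to 10066 CPM between P1 replicates 1 and 2, in which choroid plexus markers summed to 14.5 and 310 CPM.

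Among the 3 partner receptor genes, Rxrg rose by 2.80 and Rxra by 0.72, and Rxrb fell by 1.22. In the corepressor complex Tbl1xr1 rose by 0.97, and Hdac3 and Gps2 fell (-0.78 and -1.26). Of the 6 coactivator genes, 0 were called by edgeR's quasi-likelihood test or by DESeq2 in this step, and 0 had an unadjusted p under 0.05. The edgeR test called 25.4% of all tested genes higher and 20.9% lower in this step. No share of all genes is given here for DESeq2 or for the unadjusted threshold. Of 10 further genes known to respond to the hormone in brain, Aldh1a1, Mbp and Camk4 rose (6.92, 3.94 and 1.68), and Nrgn, Flywch2 and Ntf3 fell (-3.69, -1.91 and -1.64). Nrgn, a neuronal calmodulin-binding protein, read 14.7, 14.2 and 36.6 CPM at E15.5 and 1.33, 1.67 and 2.07 CPM at P1. Mbp is a major protein of myelin and moved with the oligodendrocyte sums given above, and the part of those cells in it was not tested. Within 1 side of the Tsnax split the calls of Slc16a10, Crym, Ttr, Rxra, Hdac3, Tbl1xr1 and Camk4 were lost.

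After P1, fewer genes of the list were called, as for all genes. P7 against P1 called 2 of 32 higher, beside 1.4% of all genes. P14 against P7 called 2 higher and 2 lower, beside 5.81% and 4.51%, and P14 against P1 also 2 and 2, beside 3.63% and 5.31%. P7 was called above P1 for Gps2 (1.05) and for Pcp2 (2.03), a gene of Purkinje cells, whose marker sums ran from 226 to 823 CPM at P7 and 184 to 307 at P1. P14 was above P7 for Slco1c1 (1.82) and Rasd2 (1.34) and below it for Rxrg (-2.42) and Gps2 (-0.79). The part of endothelium and astroglia in the Slco1c1 difference was not tested. P14 was above P1 for Rasd2 (1.24) and Flywch2 (1.24) and below it for Crym (-2.96) and Rxrg (-3.29). Rxrg, the retinoid X receptor of narrow tissue range, read 14.9, 16.4 and 6.86 CPM at P1 and 1.38, 1.18 and 1.34 CPM at P14. Leaving out 1 library moved the P14 against P1 count from 4 to between 1 and 10, with 10 reached without P1 replicate 3, and a fit of P7 and P14 alone called 14 genes in place of 4.

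**Figure D4:**
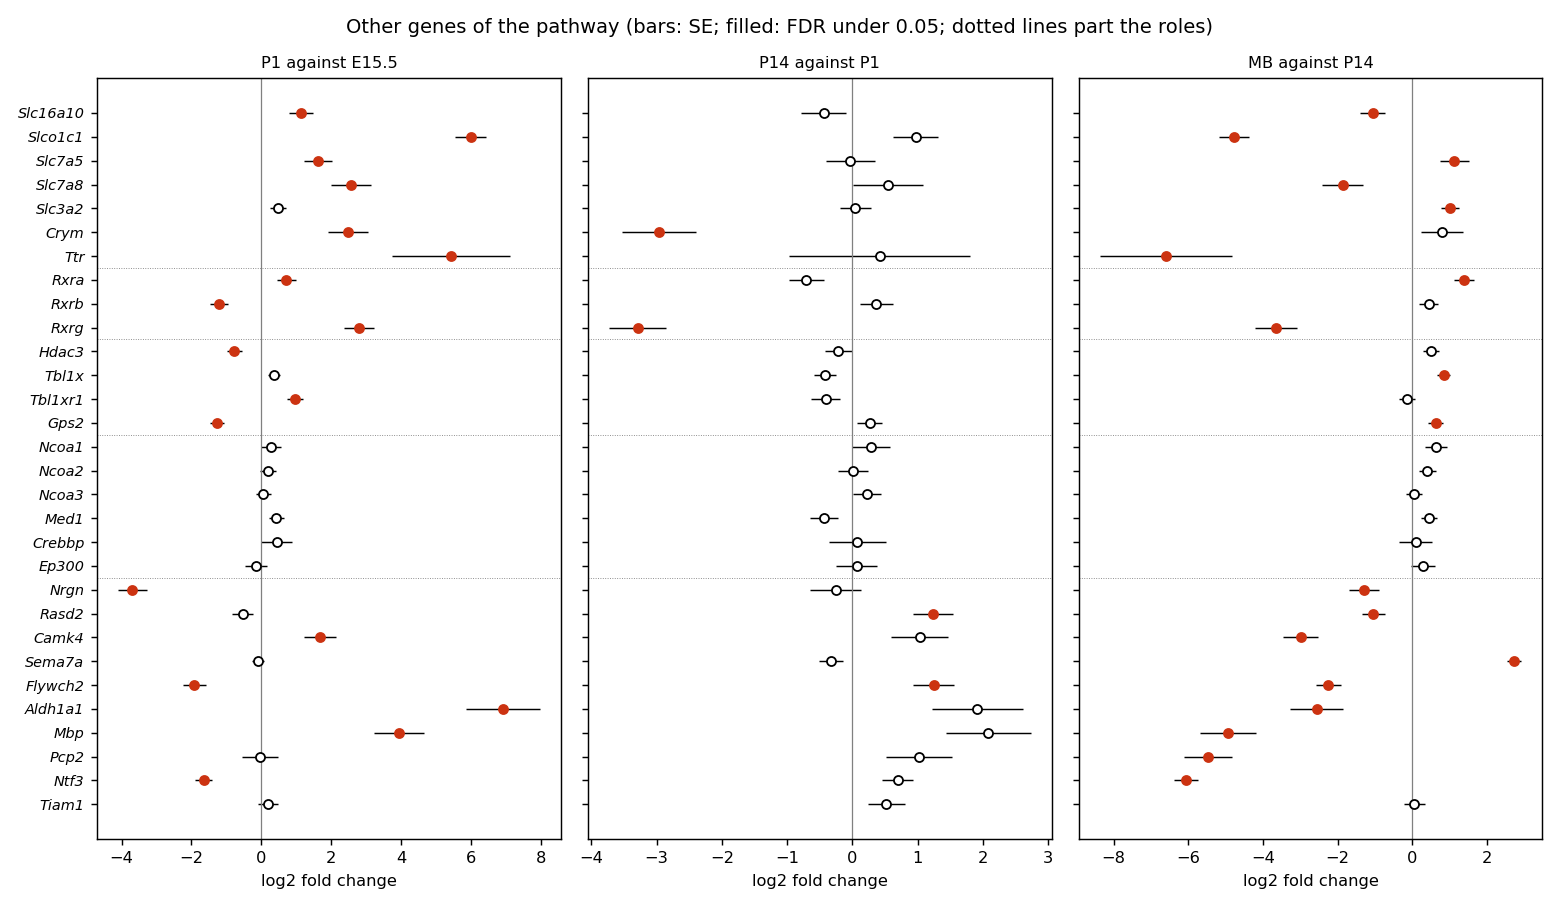
Log2 fold change (horizontal axes, scaled separately in each panel) with SE as bars for 30 of the 32 tested genes of the pathway list in 3 contrasts, from transport at the top through partner receptors, corepressor complex and coactivators to response genes; filled points had an adjusted p under 0.05. Most filled points of the response genes in MB against P14 lie left of 0, and Sema7a lies right of it.

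In MB the list was called in both directions, with 5 of 32 genes higher and 9 lower against P7, beside 13.7% and 20.7% of all tested genes. Against P14, 7 were higher and 13 lower, beside 22.9% and 27.2%. Its median was -0.02 and 0.05 in these contrasts, close to that of all genes. Response genes were the larger part of those lower: Ntf3, a neurotrophin gene, was at -5.36 against P7 and -6.06 against P14, Pcp2 at -6.48 and -5.48, Mbp at -3.63 and -4.94, and Camk4 at -2.06 and -3.00. Flywch2 and Nrgn were lower in both contrasts as well, and Rasd2 and Aldh1a1 against P14. Purkinje cell markers summed to 31.1 to 47.2 CPM in MB against 226 to 823 at P7, and their part in the Pcp2 difference was not tested. Sema7a, a membrane-anchored semaphorin, was the response gene called higher, by 2.14 against P7 (SE 0.19, adjusted p = 6.97e-07), at 869, 1178 and 1112 CPM in MB and 228, 238 and 248 CPM at P7. All MB libraries lay far above all P7 libraries for this gene.

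Carriers and cofactors also differed in MB. Slco1c1 was lower than at P7 (-2.94) and at P14 (-4.77), at 5.91, 8.92 and 9.05 CPM, and so was Slc16a10 (-0.99 and -1.07). Endothelial and pericyte markers summed to 24.5 to 38.5 CPM in MB, 364 to 560 at P7 and 1077 to 1205 at P14. The part of endothelium and astroglia in the low Slco1c1 of MB was not tested. Slc7a5 and its partner subunit Slc3a2 were higher, by 1.25 and 1.16 against P7. Rxrg was lower against P7 (-6.08) and Rxra higher by 0.84. MB replicate 1 is the MB library on the same side of the Tsnax split as P7, and against P7 it alone gave 0.45 for Slc3a2, 0.10 for Rxra and -0.49 for Slc7a5, which changed sign. It gave -0.62 for Slc16a10 and -1.46 for Camk4, and all 5 of these calls were lost. Against P14, Slc7a8 (-1.86), Ttr (-6.60) and Rxrg (-3.66) were also lower, and Tbl1x (0.84) and Gps2 (0.62) were higher. Rxra (1.38), Slc3a2 (1.00) and Slc7a5 (1.12) were called higher than at P14 too. Rxra and Slc3a2 kept this call in all 14 alternatives and Slc7a5 in 8 of 13. MB replicates 2 and 3, on the P14 side of the Tsnax split, gave 1.64, 1.26 and 1.56 in the same order. For Slc7a5, MB replicate 1 read 199 CPM, below every P14 library.

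The genes most like each member were found among 11570 genes averaging 5 CPM or more, by Pearson correlation of log2 CPM over the 15 libraries. The libraries fall into 5 groups that set much of each value, and no p was computed. Thra was closest to Cacnb3 (0.99), a calcium channel subunit gene, Actl6b (0.97) and Dusp26 (0.97), and Thrb to Unc5d (0.97), Lef1 (0.96) and Frmpd4 (0.96). Klf9 was closest to Bhlhe40 (0.98), a transcription factor gene of the circadian clock, Fgfrl1 (0.98) and Zfp365 (0.98), and Hr to Ypel2 (0.98), Map6d1 (0.97) and Atp1b2 (0.97). Dio2 was closest to Fgf1 (0.99), Slc44a1 (0.98) and Itpkb (0.98), and Dio3 to Ano10 (0.96), Bend5 (0.94) and Cdkn1c (0.94). Ncor1 was closest to Kmt2e (0.97), 9930021J03Rik (0.97) and Arhgap21 (0.95). Among the members themselves Klf9, Hr and Dio2 varied together (0.96 for Klf9 with Hr, 0.94 for Klf9 with Dio2 and 0.90 for Hr with Dio2), while Dio3 ran against Klf9 (-0.82).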

How the data were processed

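RNA-seq was analysed in 15 libraries, 3 per group. The authors deposited raw read counts per Ensembl gene, per transcription start site model and per transcript; the gene counts were the main table. Per the submitters' processing notes, Trimmomatic, TopHat, StringTie and HTSeq were used with build mm9; versions, roles and the strand setting are not given in the sources used here. The 5 summary lines of each gene table name no gene and stayed out of library sizes: reads assigned to genes made up 39.5% to 55.4% per library, those outside genes 14.1% to 29.2%, those with multiple alignments 22.9% to 44.6% and ambiguous ones 0.520% to 0.749%. Symbols were matched for 20358 of 21889 genes.

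Counts were tested with edgeR 4.0.16 in R 4.3.3 (filterByExpr with minimum count 10 and minimum total 15, TMM, quasi-likelihood test, 1 mean per group over all 15 libraries, 10 residual degrees of freedom). P-values were adjusted by the Benjamini-Hochberg method over 15259 genes, and a call is an adjusted p under 0.05. CPM are counts scaled to a TMM-adjusted library size of 1000000. For correlations a prior count of 2 was added before taking log2. Depth limits precision mainly for Dio3 and for E15.5 Hr and Dio2; intervals cover counting error only. The code was tested on simulated data. The alternatives were DESeq2 1.42.0, RLE factors, no filter, the 2 groups alone, the other tables, a replicate block, 1 side of the Tsnax split, and leaving out each library.

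All 7 members, the called genes of a pathway list (2 of its genes are counted but not reported singly here), and for each member the 3 most correlated genes were named. Members, lists and markers were chosen with earlier results of these data known. Marker lists covered granule lineage, division, astroglia, oligodendrocytes, Purkinje cells, interneurons, microglia, endothelium and pericytes, fibroblasts and choroid plexus. Division markers summed to 2412 to 3872 CPM in MB, 845 to 1102 at P14, 2089 to 3148 at P7, 1456 to 2163 at P1 and 687 to 1247 at E15.5. In the same order of groups, microglial markers summed to 133 to 374, 111 to 158, 39.4 to 119, 64.4 to 108 and 4.26 to 20.4, interneuron markers to 89.5 to 144, 255 to 334, 265 to 391, 286 to 323 and 490 to 592, fibroblast markers to 5.60 to 14.9, 175 to 244, 129 to 228, 227 to 376 and 5.44 to 6.93, and granule lineage markers to 3434 to 4937, 6046 to 7045, 6695 to 6842, 3454 to 5381 and 2916 to 4317.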

Additional observations from a re-analysis of the deposited data

How the results depend on the processing

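With edgeR, 5 members were called in P1 against E15.5, among them Dio3 with the limit of the filter given above. The next counts, in order, were 1 for P7 against P1, 0 for P14 against P7 (5 at an unadjusted p under 0.05), 2 for P14 set against P1, 2 and 4 for the tumour against P7 and P14, and 6 among the 4 ages. They moved by over 1.5 times to 3 within 1 side of the Tsnax split (P1 against E15.5), where E15.5 is 1 library assumed to vary like the other groups. With DESeq2 they were 2 (P7 against P1) and 1 (P14 against P7), and with the 2 groups alone 0 (P7 against P1), 5 (P14 against P7) and 1 (P14 against P1), which was also the count with the start site table. Leaving out each library gave 5 to 5, 0 to 3, 0 to 0, 0 to 4, 2 to 3, 4 to 4 and 5 to 7 in the order above. Pathway counts (18, 2, 4, 4, 14 and 20) became 15 to 18, 0 to 4, 0 to 4, 1 to 10, 11 to 16 and 17 to 20. The start site table holds 21 of the 33 pathway genes and gave 11, 1, 2, 2, 8 and 13. The 2 groups alone gave 1 (P7 against P1), 14 (P14 against P7) and 10 (P14 against P1), and DESeq2 gave 7 for P14 against P1. The shares of all tested genes under these alternatives and at the unadjusted threshold are not given here.

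Signs turned within 1 side of the split for Thrb (-0.15) and Ncor1 (-0.38) in P1 against E15.5, and for Ncor1 (0.20) and Slc7a5 (-0.49) in MB against P7. They also turned for Klf9 with the 2 groups alone (0.0098, MB against P7) and for Hr with the replicate block (0.29, P7 against P1). Except for Slc7a5, these differences were not called in the reported fit. Where leaving out a library turned a sign, values ran from -0.27 to 0.34 (Ncor1, P1 against E15.5), -0.63 to 2.03 (Hr, P7 against P1), -0.25 to 1.57 (Dio2, P7 against P1), -0.29 to 0.40 (Dio3, P14 against P1), -0.20 to 0.069 (Ncor1, P14 against P1) and -0.074 to 0.075 (Klf9, MB against P7). The causes were not tested. Besides left-out libraries, single genes kept direction and side of the threshold in 797 comparisons, lost a call in 30, gained one in 10 and turned in the 6 above.

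Replicate numbers are not stated to pair the samples, and the correlations below cannot show whether they do. Over 30 pairs with the same number, correlations of deviations from group means ran from -0.31 to 0.33, and 7 were over 0.1. Over 60 pairs with different numbers they ran from -0.48 to 0.47, and 14 were over 0.1. Of 15 libraries, 5 correlated best with their own number. With the replicate block the counts of members called were 5, 1, 0, 2, 2, 4 and 6 in the order above.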
